A study of Mus musculus with 12 samples.

Results

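The Hox genes of the mouse aorta were measured by RNA sequencing in 12 male mice, 6 control and 6 AZ6983. They were taken as every row of the count table whose symbol is Hoxa, Hoxb, Hoxc or Hoxd followed by a number, which gave 33 of 25284 genes. The Hoxa cluster on chromosome 6 gave 11, the Hoxb cluster on chromosome 11 gave 9, the Hoxc cluster on chromosome 15 gave 7 and the Hoxd cluster on chromosome 2 gave 6. GENCODE M21 holds 39 such genes, and Hoxb13, Hoxc12, Hoxc13, Hoxd1, Hoxd11 and Hoxd12 were not analysed here.

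All mice carried the Apoe deletion (ApoE-/-) on a C57BL/6 background, ate a high fat diet with added cholesterol and were 18 weeks old at the end. AZ6983, an agonist of the alpha 7 nicotinic acetylcholine receptor, was delivered by osmotic minipump over 8 weeks (dose 50 µmol per kg daily), and control mice received the vehicle by the same route from the same age of 10 weeks. Each library came from the aorta of 1 mouse, and the mice are called C1 to C6 and A1 to A6 here. The sample labels say thoracic aorta, while the text on the whole series says whole aorta, so the length of vessel in each sample is not certain.

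Hox genes encode transcription factors that bind DNA through a homeodomain and give cells along the body axis their positional identity. Within a cluster they are numbered as paralogue groups, and the low numbers are used from the hindbrain and neck downwards. Higher numbers start further back along the axis, and only the last groups are restricted to the lumbar, sacral and tail levels. Cells of the adult vessel wall are known to keep part of the Hox pattern of the level at which they arose, so the set of Hox transcripts can be read as a position along the axis.

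The homeobox is the stretch of 180 bases that encodes the homeodomain. It is shown for 4 genes from anterior to posterior, because the members resemble each other most there and because reads had to be told apart in it. Capitals mark the bases that differ from Hoxa5, the gene with the highest level, and each sequence reads 5′ to 3′ on the coding strand, from the GENCODE M21 transcripts of GRCm38.
Hoxb2: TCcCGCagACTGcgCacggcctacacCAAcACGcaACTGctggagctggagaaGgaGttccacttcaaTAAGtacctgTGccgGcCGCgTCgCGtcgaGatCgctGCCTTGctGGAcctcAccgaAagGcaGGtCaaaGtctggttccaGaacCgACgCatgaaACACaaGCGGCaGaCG
Hoxa5: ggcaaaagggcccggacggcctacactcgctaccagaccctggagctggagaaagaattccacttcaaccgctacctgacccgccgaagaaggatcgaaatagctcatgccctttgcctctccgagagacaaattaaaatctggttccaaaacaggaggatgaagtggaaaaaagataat
Hoxc6: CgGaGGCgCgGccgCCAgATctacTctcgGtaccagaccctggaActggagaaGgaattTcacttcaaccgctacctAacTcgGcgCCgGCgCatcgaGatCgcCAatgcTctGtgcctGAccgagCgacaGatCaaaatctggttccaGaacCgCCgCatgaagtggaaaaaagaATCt
Hoxd13: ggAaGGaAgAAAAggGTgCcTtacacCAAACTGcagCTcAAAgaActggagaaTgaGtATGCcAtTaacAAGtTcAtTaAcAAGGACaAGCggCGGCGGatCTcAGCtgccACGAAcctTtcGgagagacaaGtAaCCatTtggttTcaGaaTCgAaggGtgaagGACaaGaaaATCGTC

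The homeobox of Hoxa5 lies at chr6:52202632-52202811 on the minus strand. On the plus strand lie those of Hoxb2 (chr11:96352985-96353164), Hoxc6 (chr15:103010754-103010933) and Hoxd13 (chr2:74669930-74670109). All of them are coding exon sequence. Identity to Hoxa5 was 75.6% for Hoxc6, 60.6% for Hoxb2 and 51.1% for Hoxd13, the lowest of the members. Hoxb5, of the same paralogue group as Hoxa5, was the closest at 83.9%. The longest exact run shared by transcripts of members whose loci do not overlap was 52 bases, between Hoxa6 and Hoxb4, which is shorter than the 75 bases of a read. Longer shared runs joined Hoxd3 with Hoxd4 (388 bases) and Hoxc5 with Hoxc10 (168 bases), whose gene models overlap, so the counts of these pairs are less certain. Antisense transcripts such as Hoxb3os overlap some members, and whether the counting used the strand is not given in the sources used here.

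Libraries held 23810036 to 35864666 counts on genes, and 2806 (A3) to 3918 (A4) of these fell on the Hox genes. Of A5's counts, 30.2% fell on its 10 highest genes, against at most 22.1% elsewhere. A4 had thymus markers at 857 CPM (counts scaled to the library total with TMM factors) summed over 6 genes, against at most 31.9 in the other mice. Smooth muscle markers summed to 10135 to 17528 CPM. Brown fat markers were also present in every library (2309 to 5561 CPM, highest in A5), while kidney markers reached at most 0.426 CPM and adrenal markers 0.718 CPM. Skeletal muscle markers varied widely, from 4.58 CPM (C4) to 503 CPM (A5), with C2 at 486 and A6 at 447 CPM. Cardiac muscle markers ran from 5.21 CPM (A3) to 159 CPM (C2). Sympathetic neuron genes, a list of 7 chosen after values were seen, spanned 12.4 CPM (C1) to 832 CPM (C3). Their part in the results was not tested.

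Along the axis, levels were high from paralogue group 2 to group 8 and low at the posterior end. A level here is CPM per kb of exon, so that genes can be compared. Group 5 held 18.8% of the summed Hox level over all mice, group 7 held 17.3%, and groups 2 and 6 held 12.7% each. Levels dropped towards the posterior end, from 9.16% in group 8 to 5.82% in group 9, 4.33% in group 10, 0.556% in group 11 and 0.0851% in group 13. Put together, groups 1 to 4 held 31.3%, groups 5 to 8 held 57.9% and groups 9 to 13 held 10.8%. The peak depended on the length used. With exon length shared with other genes left out, group 2 came first at 21.3%, ahead of group 7 (16.1%) and group 5 (14.8%). All counts of a gene were kept in that version. Genes with shared exons are therefore set too high in it if reads on the shared part were counted. Since the tissue was measured in bulk, a gene used by fewer cells cannot be told apart from one with less RNA per cell.

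**Figure D1:**
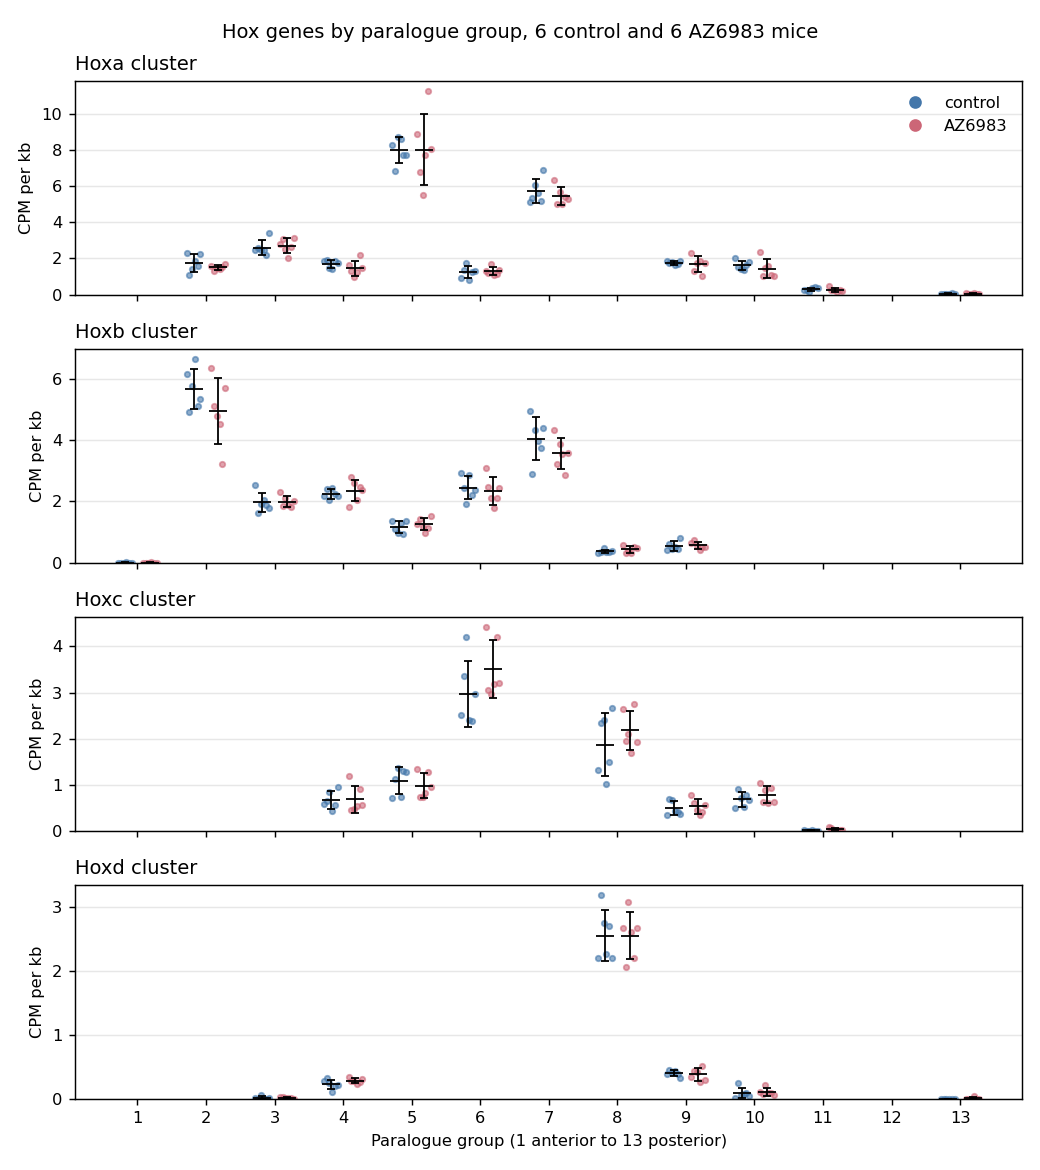
Level of the Hox genes (CPM per kb of exon, linear axes from 0 with a scale of their own per cluster) by paralogue group in each of the 4 clusters, with points for single mice and bars for the mean and SD of 6 control and 6 AZ6983 mice. Hoxa5 had the highest mean (7.99), and the mean levels of group 11 and 13 genes lay at 0.281 or less.

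The gene with the highest level was Hoxa5, which patterns the boundary of neck and thorax and the airways. Its level in control mice ran from 6.85 (lowest) over 7.99 (median) to 8.73 (highest), and in AZ6983 mice from 5.49 over 7.88 to 11.2. A5 was the highest of the 12 and A3 the lowest, and the groups overlapped. Hoxa7, a thoracic member, followed at 5.71 ± 0.672 (SD, n = 6) in control and 5.45 ± 0.497 (SD, n = 6) in AZ6983 mice. Hoxb2, better known from the hindbrain, had 5.65 ± 0.656 and 4.94 ± 1.07 (SD, n = 6 each). The order of the first 3 was only partly firm, since Hoxa5 exceeded Hoxa7 in 11 of 12 mice and Hoxa7 exceeded Hoxb2 in 7 of 12. Hoxb2 exceeded the next gene, Hoxb7, in 12 of 12. Of the 1628 exon bases of Hoxb2, only 675 are not shared with another gene. With shared exon length left out Hoxb2 came first at 12.8 CPM per kb. That value keeps every Hoxb2 count, so it is too high if reads on the shared part were counted.

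Hoxb7 (mean over all mice 3.80 CPM per kb), the thoracic gene Hoxc6 (3.24) and Hoxa3 (2.65), which is needed for thymus and parathyroid, completed the 6 highest. Hoxd8 (2.55), Hoxb6 (2.39), Hoxb4 (2.30), Hoxc8 (2.02), Hoxb3 (1.98) and Hoxa9 (1.72) came next. Neighbours in this stretch did not differ beyond the spread between mice, for example Hoxb6 exceeded Hoxb4 in 6 of 12 mice and Hoxc8 exceeded Hoxb3 in 7 of 12. A clear step followed at the lower end, where Hoxd4 (0.255) exceeded Hoxd10 (0.0973) in 12 of 12 mice.

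At the anterior end of the Hoxb cluster, Hoxb1, a gene of the hindbrain, was close to the floor at 0.00361 CPM per kb. At the posterior end the last gene with appreciable level differed by cluster. In Hoxa it was Hoxa11 (0.281), a gene of the limb and the urogenital tract, and Hoxa13 followed at 0.0426. Hoxb9 (0.552) ended the Hoxb genes tested. In Hoxc it was Hoxc10 (0.730), a gene of the lumbar level, with Hoxc11 at 0.0221, and in Hoxd it was Hoxd9 (0.390). Hoxd13, a gene of the digits and the hindgut, was listed at 0 counts in every mouse except A4, which had 4.

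By cluster, Hoxa genes made up 45.8% of the summed level, Hoxb 33.0%, Hoxc 15.1% and Hoxd 6.13%. With shared exon length left out, Hoxb (41.9%) and Hoxa (41.0%) changed places, and Hoxc and Hoxd stayed lower. The Hoxa sum was the steadiest between mice, with a coefficient of variation of 8.77%, against 10.6% for Hoxb, 13.6% for Hoxd and 22.3% for Hoxc. These sums pool different numbers of genes, and gene by gene Hoxa was not the steadiest. The median SD of log2 CPM within groups was 0.24 for the tested Hoxb genes, 0.27 for Hoxd, 0.30 for Hoxa and 0.40 for Hoxc. The highest Hoxa mouse (A1, 28.1 CPM per kb) exceeded the lowest (A3, 22.04) by 1.28-fold, while the highest Hoxc mouse (A1, 11.5) exceeded the lowest (C4, 5.56) by 2.07-fold.

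**Figure D2:**
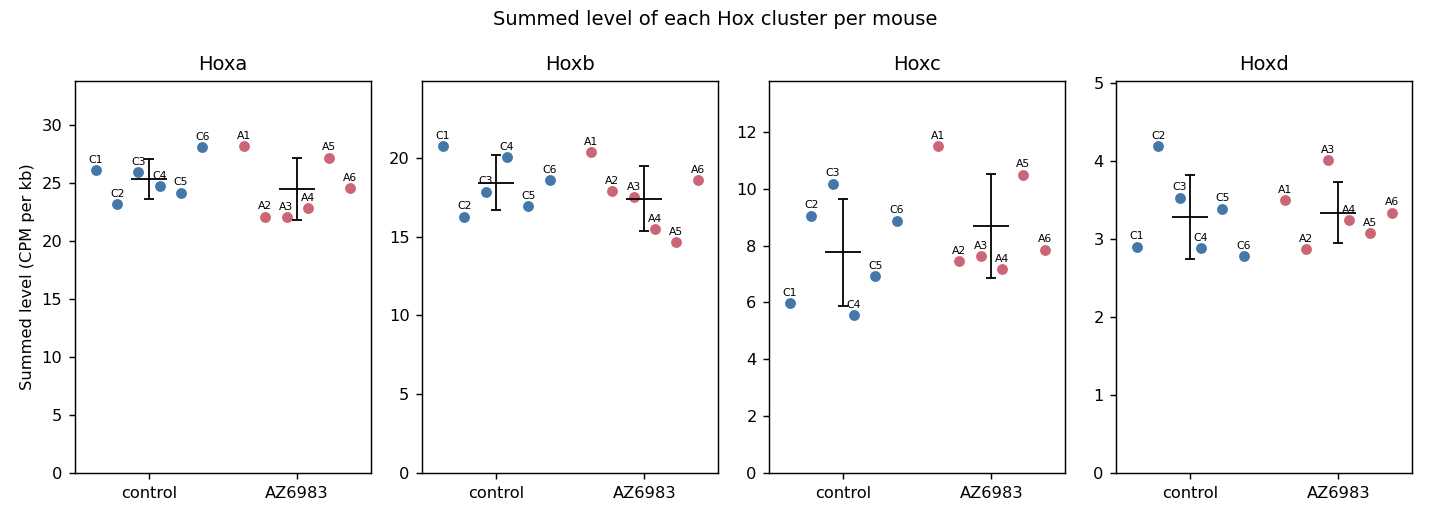
Summed level of each Hox cluster (CPM per kb, linear axis from 0) in each mouse, with the group mean and SD (n = 6 each) in black. The Hoxc sums spread from 5.56 (C4) to 11.5 (A1) and overlapped between the groups.

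Several mice stood at the same end for most Hoxc genes. A1 was the highest of the 12 in 4 of the 6 tested Hoxc genes and among the top 3 in all 6. C1 and C4 were each among the lowest 3 in 5 of 6. A5 lay above the median of the 12 mice in 5 of 6, with Hoxc9 (0.981 CPM) as the exception. C6 did not stand at one end, since it lay above the median in only 3 of 6 (Hoxc9 at 0.884 CPM). For Hoxc8, which sets the identity of lower thoracic vertebrae, control mice ran from 1.90 (C4) over a median of 3.56 to 4.97 CPM (C6), and AZ6983 mice from 3.17 (A4) over 3.78 to 5.15 CPM (A5). For Hoxc4 the control values ran from 1.12 (C4) over 1.56 to 2.45 CPM (C6), and the AZ6983 values from 1.15 (A2) over 1.39 to 3.04 CPM (A1). Both genes were high in C6, A1 and A5, and low in C4.

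Sympathetic neuron genes were high in some of the same mice as the Hoxc genes. The neuron list (Th, Dbh, Phox2a, Slc6a2, Slc18a2, Chga and Stmn2, the enzymes, a regulator, transporters and vesicle or growth proteins of such cells) was highest in C3 (832 CPM), C6 (463), A1 (307) and C2 (134), and lowest in C1 (12.4) and C4 (20.9). These first 4 mice were among the 5 with the highest Hoxc sum, and C1 and C4 had the lowest Hoxc sums. A5 departed from this, with 10.5 CPM per kb of Hoxc genes but only rank 9 of 12 in the neuron list. Hand2 and Tfap2b, transcription factors that such neurons use, were highest in C3, C6 and A1. For Hand2 these values were 17.4, 11.3 and 5.05 CPM, against 1.92 to 3.91 in the others. The neuron list was added after the values of these and other regional transcription factors had been seen, so this likeness is no separate support. The part of neuronal RNA in the Hoxc levels was not tested.

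The mice at the ends of the other clusters were partly the same. A1 also had the highest Hoxa sum and the second highest Hoxb sum. A4, the mouse with thymus markers, was among the lowest 3 in 6 of 8 tested Hoxb genes and in 6 of 10 Hoxa genes. A2, whose thymus markers summed to only 1.33 CPM, was likewise among the lowest 3 in 6 of 10 Hoxa genes. C2 was among the highest 3 in all 3 tested Hoxd genes and C6 among the lowest 3 in all 3. The Hoxb sum was lowest in A5 (14.6 CPM per kb) and highest in C1 (20.7).

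**Figure D3:**
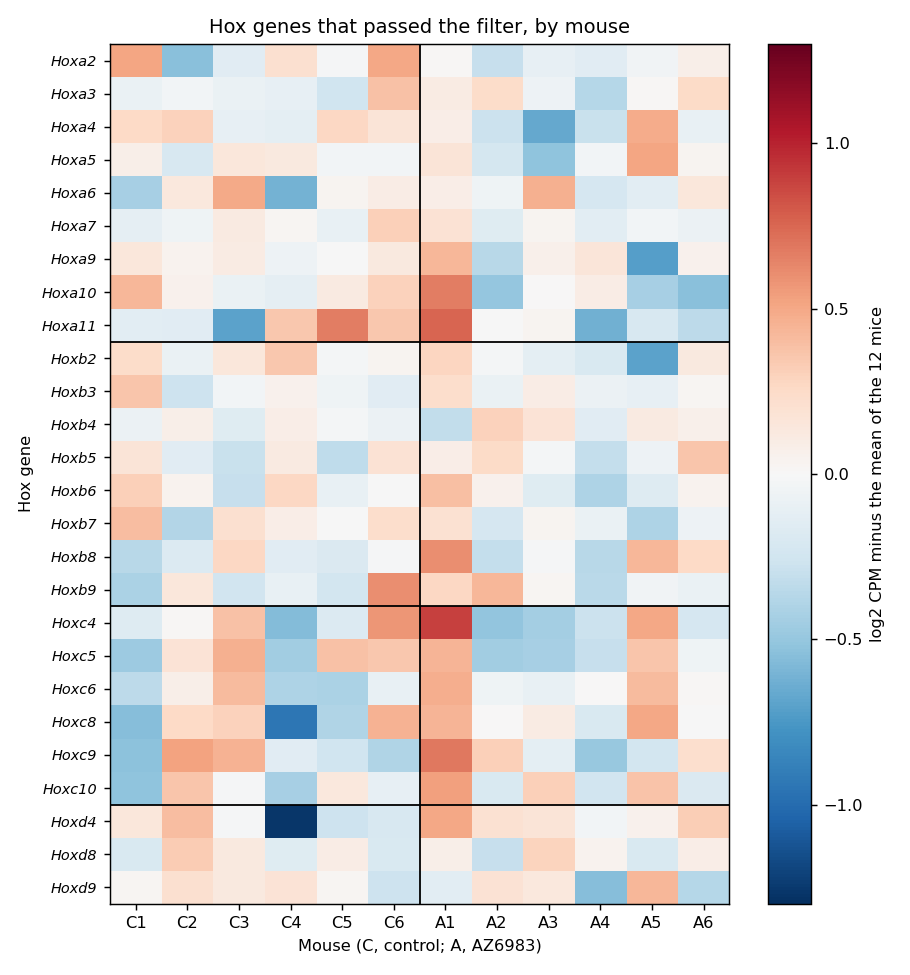
Deviation of 26 tested Hox genes (rows, by cluster and paralogue group), each from its mean over all 12 mice (columns), as log2 CPM without a prior count (red above, blue below). Most Hoxc rows are high in A1 and low in C1 and C4, and no row separates the control from the AZ6983 columns.

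As to the spread of single genes, the pooled SD of log2 CPM within groups had a median of 0.30 over the 27 tested members. It was 0.22 over all 15857 tested genes, and 0.30 over the 6774 tested genes in the same range of counts. Hoxa7 was the steadiest member with an SD of 0.15. The least steady were Hoxc4 (0.48), Hoxc8 (0.43) and Hoxa11 (0.43). The variance of the counts within groups was 3.32 times that of counting alone at the median of the members. This median was 7.56 over all tested genes and 4.30 over those in the same range of counts. Among members the ratio ran from 0.919 for Hoxd9 to 12.9 for Hoxa5. So most of the scatter of Hoxa5 was not counting error, while that of Hoxd9 was no larger than counting error. The highest Hoxa5 value was that of A5 at 21.1 CPM, against 10.3 to 16.6 CPM in the other mice, and A5 was also the highest in brown fat markers. A5 had the lowest TMM factor (0.837, against 0.987 in C2 to 1.07 in A3). This factor sets all CPM values of A5 higher than its library total alone would. The part of this scaling in the distance of A5 from the other mice was not tested.

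The position of each sample's Hox profile along the axis was summarised in 2 ways. Both are ratios of expression in bulk tissue and do not measure the length of vessel taken. The mean paralogue group, weighted by level, was 5.52 ± 0.132 (SD, n = 6) in control mice, from 5.36 in C4 to 5.69 in C2. In AZ6983 mice it was 5.57 ± 0.119 (SD, n = 6), from 5.43 in A6 to 5.70 in A1. The groups overlapped, and their means differed by 0.0514 of a paralogue group, less than the SD of either.

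The share of Hox counts on groups 9 to 13 was 14.1% ± 0.898 (SD, n = 6) in control and 13.8% ± 2.11 (SD, n = 6) in AZ6983 mice. The control values lay between 13.1% (C4) and 15.4% (C2). Among AZ6983 mice A5 had the lowest share of all at 10.9% (95% Wilson interval 9.83% to 12.1%, counting error only) and A1 the highest at 16.6% (15.5% to 17.9%). These intervals did not overlap, so the AZ6983 mice differed among themselves by more than counting error. Hoxa9, also known from blood stem cells, and Hoxa10 hold much of these counts. Hoxa9 was lowest in A5 (3.31 CPM) and highest in A1 (7.35 CPM), and Hoxa10 was lowest in A6 (3.21 CPM) and highest in A1 (7.39 CPM). Hoxc10 did not follow the same order, being high in both A5 (1.76 CPM) and A1 (1.97 CPM). Hoxd9 was highest of all in A5 (1.10 CPM, 27 counts) and lower in A1 (0.743 CPM, 20 counts). The scatter of Hoxd9 was no larger than counting error, so its order of mice cannot be read.

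**Figure D4:**
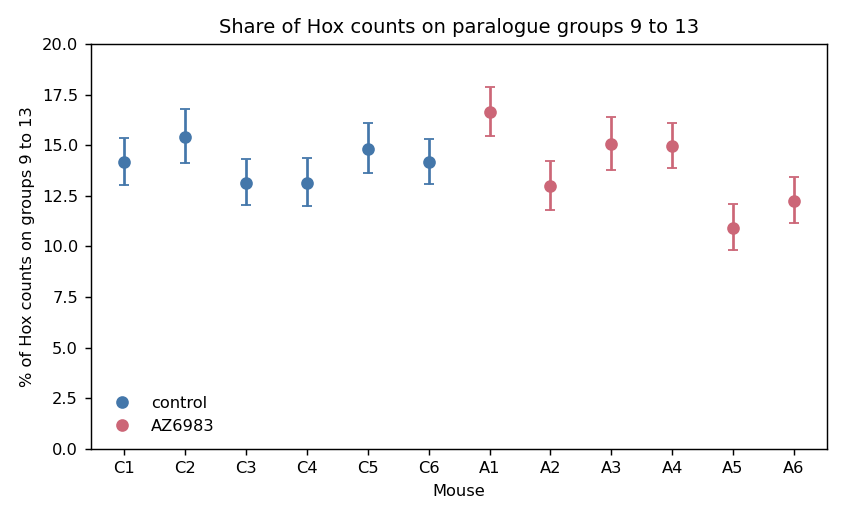
Percent of all Hox counts that fell on paralogue groups 9 to 13 in each mouse, with 95% Wilson intervals (counting error only). Control mice lay between 13.1% and 15.4%, and AZ6983 mice spread from 10.9% (A5) to 16.6% (A1).

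Relations across the 12 mice between position and the surrounding tissue were examined for Hoxa5 and the posterior gene Hoxa9, the highest of groups 1 to 5 and 9 to 13, in a family of 13. None passed the adjustment. Hoxa5 and Hoxa9 had Pearson's r of -0.304 (permutation p = 0.311, adjusted 0.577) and Spearman's rho of 0.119 (permutation p = 0.714, adjusted 0.844), and without A2 and A5 r was 0.289. The smallest p belonged to Hoxa5 with Ucp1, the uncoupling protein of brown fat, with r of 0.616 (permutation p = 0.0283, adjusted 0.368) and rho of 0.413 (permutation p = 0.185, adjusted 0.660). Without A3 and A5 this r was 0.125. Within control mice it was -0.120 (exact permutation p = 0.908) and within AZ6983 mice 0.871 (exact permutation p = 0.0167), so the relation rested on those mice. Hoxa9 with the smooth muscle myosin gene Myh11 had r of 0.607 (permutation p = 0.0800, adjusted 0.487) and rho of 0.294 (permutation p = 0.355, adjusted 0.660), and without A1 and A5 r turned to -0.351.

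AZ6983 mice were then compared with control mice, to ask whether 8 weeks of the agonist went with a different Hox pattern. Of the 33 members 27 had enough counts to be tested, and Hoxa13, Hoxb1, Hoxc11, Hoxd3, Hoxd10 and Hoxd13 did not. At a false discovery rate of 10% in edgeR's quasi-likelihood test (Benjamini-Hochberg adjustment), 0 of 27 members were called, as were 0 of 15857 genes (0%). At an unadjusted p under 0.05 the count was 0 of 27, beside 10.2% of all tested genes (7.38% higher and 2.81% lower in AZ6983 mice). DESeq2 called 0 of 28 members, beside 92 of 17592 genes (0.523%), and limma-voom called none of either. Both tools also gave 0 members with an unadjusted p under 0.05. With a covariate for reads outside genes, 1 of 27 members, Hoxb3, had an edgeR p under 0.05, beside 2.95% of all tested genes. Its log2 fold change was 0.29 (SE 0.122, edgeR adjusted p = 0.9998). The share of such reads was 8.02% to 12.7% in control and 11.2% to 14.9% in AZ6983 mice. Only C2 of the control mice lay within the AZ6983 range, so this covariate is largely confounded with treatment. With A5 left out, edgeR called 27 of 16011 genes (0.169%), none of them a member. Without C3, C6 and A1 it called 3 genes, and again 0 members.

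The log2 fold changes of the 27 members ran from -0.22 (Hoxa4) to 0.33 (Hoxd4), with standard errors of 0.0883 to 0.280 on the log2 scale. Their median was 0.01, the same as over all genes tested. Estimates above 0 were found for 14 and below 0 for 13, beside 52.4% above 0 over all genes. The interval of 2 standard errors on either side lay within a doubling or halving for 27 of 27 members, and within 0.5 on the log2 scale for 14. No tested member had groups that did not overlap, beside 65 of all tested genes (0.41%).

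**Figure D5:**
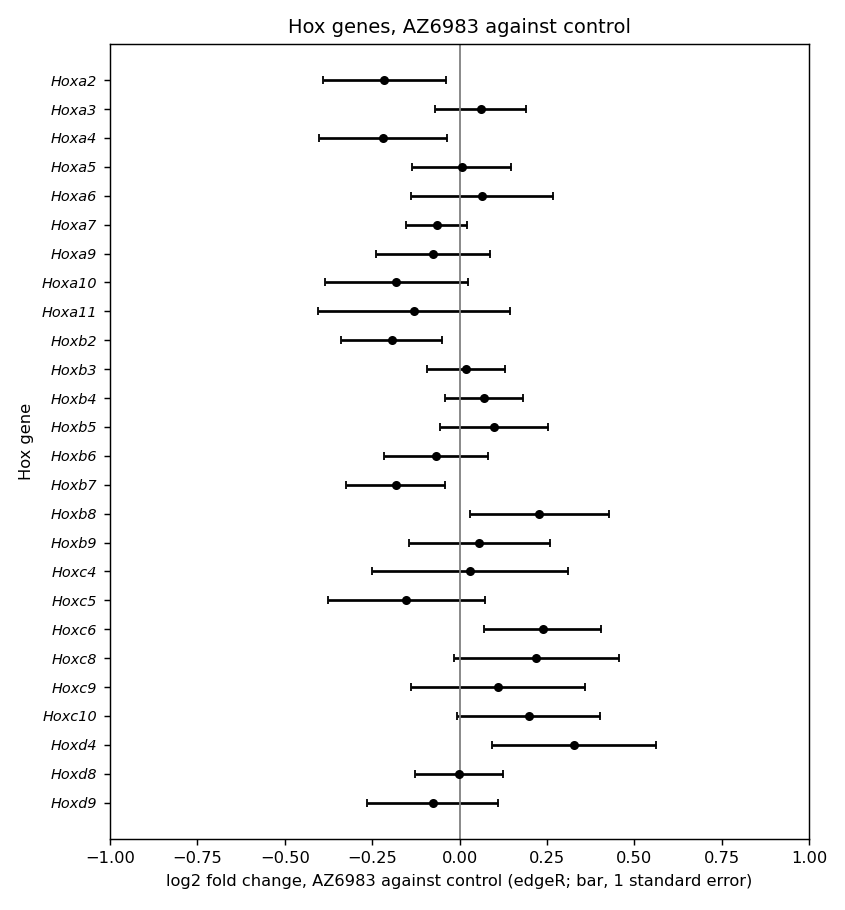
Log2 fold change of AZ6983 against control mice for 26 tested Hox genes (edgeR), with bars of 1 standard error. Estimates lie between -0.22 (Hoxa4) and 0.33 (Hoxd4), and none passed a false discovery rate of 10%.

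Among anterior members, Hoxb2 ran from 7.99 (C2) over a median of 9.04 to 10.8 CPM (C4) in control and from 5.23 (A5) over 8.03 to 10.3 CPM (A1) in AZ6983 mice. A3, A4 and A5 lay below every control mouse and the other 3 AZ6983 mice within the control range, with a log2 fold change of -0.19 (SE 0.144, edgeR adjusted p = 0.619). Hoxa2, a gene of the second pharyngeal arch, spanned 1.94 (C2) to 4.04 CPM (C1) in control mice, median 3.04, and 2.30 (A2) to 2.98 CPM (A6) in AZ6983 mice, median 2.68. All AZ6983 values thus lay inside the control range (log2 fold change -0.21, SE 0.177, edgeR adjusted p = 0.659). Hoxa3 had a log2 fold change of 0.06 and Hoxc4 one of 0.03 (edgeR adjusted p = 0.886 and 0.978). Hoxd4 ran from 0.260 (C4) over 0.582 to 0.830 CPM (C2) in control and from 0.612 (A4) over 0.712 to 0.891 CPM (A1) in AZ6983 mice. C4 was the lowest of the 12, and the fold change of 0.33 (SE 0.234) did not pass (edgeR adjusted p = 0.608).

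Among central members, Hoxc6 had the smallest p of all (0.180 unadjusted in edgeR). Control mice ran from 3.78 (C5) over 4.33 to 6.65 CPM (C3) and AZ6983 mice from 4.70 (A3) over 5.05 to 6.98 CPM (A1). The control mice C1, C4, C5 and C6 lay below every AZ6983 mouse, but C3 lay above all of them except A1 and A5. Its log2 fold change was 0.24 (SE 0.167, edgeR adjusted p = 0.605). Hoxb7, with 3.72 (C2) to 6.38 CPM (C1) in control and 3.68 (A5) to 5.57 CPM (A1) in AZ6983 mice, medians 5.36 and 4.60, had a log2 fold change of -0.18 (SE 0.141, edgeR adjusted p = 0.632). Hoxa5 was at 0.01 (SE 0.141, edgeR adjusted p = 0.992), Hoxa7 at -0.07 (SE 0.0883, edgeR adjusted p = 0.799) and Hoxc8 at 0.22 (SE 0.236, edgeR adjusted p = 0.739).

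Among posterior members, Hoxa11 ran from 0.379 (C3) over 0.670 to 0.971 CPM (C5) in control and from 0.399 (A4) over 0.571 to 1.04 CPM (A1) in AZ6983 mice. The groups overlapped over almost their whole range (log2 fold change -0.13, SE 0.274, edgeR adjusted p = 0.886). Hoxb9 differed by 0.06, Hoxc10 by 0.20 and Hoxd9 by -0.08 on the log2 scale (edgeR adjusted p = 0.934, 0.730 and 0.901). Hoxc11, below the filter, had 0 to 1 counts in control and 1 to 5 counts in AZ6983 mice. Its CPM values did not overlap, but C1, C4 and 3 AZ6983 mice had 1 count each and were separated by the scaling of the libraries alone. A5, with 1 count, had more counts on genes (29275555) than C1 (28682894) and C4 (26818096). Its higher CPM thus came from its TMM factor (0.837). Without the filter its edgeR p was 0.0113 (adjusted 0.529), beside 9.35% of genes with a p under 0.05, and no difference was detectable at this depth.

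Genes that work with the Hox proteins or set Hox expression were examined by lists. Noncoding genes and neighbours of the clusters and other regional transcription factors were listed too. None of the genes in these lists passed 10% in edgeR either. DESeq2 called 2 at 10%, beside 0.523% of all genes. They were Cyp26b1 of the retinoic acid list (13 genes tested in edgeR) and Pax1 of the other regional transcription factors (22 tested). Both are also in the authors' own list at 10%, from the same data. The median log2 fold change was 0.11 for the TALE cofactors, 0.07 for Polycomb, 0.05 for Trithorax, 0.04 for retinoic acid, -0.04 for noncoding genes of the clusters and -0.03 for other regional transcription factors. Of the TALE cofactors, the homeodomain partners of Hox proteins, 8 of 9 were tested, and 3 were higher and 0 lower in AZ6983 mice at an unadjusted p under 0.05, beside 7.38% higher and 2.81% lower over all genes. Pbx2 spanned 19.6 to 21.6 CPM in control and 21.9 to 23.9 CPM in AZ6983 mice, without overlap (log2 fold change 0.14, SE 0.0481, edgeR adjusted p = 0.450). Pknox1 had a log2 fold change of 0.19 (edgeR adjusted p = 0.466). Of 15 Polycomb genes, which keep Hox genes silent, 1 was higher and 2 lower at that level, with Jarid2 at 0.26 and Ezh1 at -0.14 (edgeR adjusted p = 0.447 and 0.450). Of 9 Trithorax and H3K27 demethylase genes, which keep them active, 2 were higher, with Kdm6b at 0.59 and Kmt2a at 0.38 (edgeR adjusted p = 0.447 and 0.472).

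Of 13 tested genes of retinoic acid, a signal that acts on Hox genes in the embryo, 3 were higher and 0 lower at an unadjusted p under 0.05, beside the same 7.38% and 2.81% over all genes. Cyp26b1, which degrades retinoic acid, ran from 7.74 to 12.96 CPM in control and from 11.6 to 16.2 CPM in AZ6983 mice (log2 fold change 0.49, SE 0.130, edgeR adjusted p = 0.447, DESeq2 adjusted p = 0.0801). Only A6 lay within the control range. The receptor gene Rara had a log2 fold change of 0.22 (edgeR adjusted p = 0.466). Of the axial regulators only Gdf11, a signal of the trunk to tail transition, could be tested (0.01, edgeR adjusted p = 0.979). Of 6 noncoding genes of the clusters that could be tested, 0 had a p under 0.05, with Hoxd3os1 at -0.40 and Hoxb5os at 0.23 (edgeR adjusted p = 0.582 and 0.653). Of 5 neighbouring genes, Skap1, an adaptor of T cells, had a log2 fold change of 2.41 (edgeR adjusted p = 0.454), with 774 counts in A4, the mouse with thymus markers, and Smug1 had one of -0.06 (edgeR adjusted p = 0.775).

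Of 22 other regional transcription factors, 1 was higher and 0 lower at an unadjusted p under 0.05, beside 7.38% and 2.81% over all genes. This was Pax1, a gene of the sclerotome and thymus, with 1.70 to 2.48 CPM in control and 2.53 to 3.74 CPM in AZ6983 mice, without overlap as in 0.41% of all tested genes (log2 fold change 0.60, SE 0.152, edgeR adjusted p = 0.447, DESeq2 adjusted p = 0.0774). Hand2 had a log2 fold change of -1.06 (SE 0.518, edgeR adjusted p = 0.504), and its 2 highest values were those of C3 and C6.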

How the data were processed

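Members and lists were chosen with earlier results of these data known. The authors prepared stranded total RNA libraries after removal of ribosomal RNA and deposited raw counts per gene symbol for 12 mice. The submitters' processing notes name CASAVA 1.8.2, STAR 2.5.2b, HTSeq 0.6.1p1 and mm10, and the annotation and strand setting are not given in the sources used here. Each of 11 columns carries the full number of 1 mouse, and that of A1 carries 3 of its 4 digits. The 3 rows that name no gene (reads on no gene, 8.02% to 14.9% of each library, ambiguous reads and reads aligned to several places) were left out. Columns also end in a library number of unstated meaning, and controls hold 3 to 7 and 12, so it is largely confounded with treatment. No pair of libraries were copies (chi-square per degree of freedom 12.9 to 250 over 66 pairs), and the spread between mice may include technical spread.

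Counts were fitted with edgeR 4.0.16 in R 4.3.3 (TMM, filterByExpr, quasi-likelihood test, no covariate), with p adjusted over all 15857 genes by Benjamini-Hochberg. The fit was tested on simulated data. DESeq2 1.42.0, limma-voom (limma 3.58.1), other normalizations and filters, a covariate and omitted mice were alternatives. Levels were divided by the union of exons in the basic annotation of GENCODE M21 (GRCm38). In that annotation Hoxc5 and Hoxc10 share no exon bases with another gene. The run of 168 bases shared by their transcripts was therefore not left out with the shared exon length. Correlations used 100000 permutations, or exact permutation within groups. Genes described in full were the 6 highest per kb, the ends of each cluster among tested genes, the 3 with the largest SD, the 5 with the smallest p and any member without overlap. For the other lists, the 2 genes with the smallest p are given. The values of 1 member and some sequences are not reported here.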

Additional observations from a re-analysis of the deposited data

Results flagged for a closer look

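Of 68 groups of 6 values that were examined for a single distant mouse, 1 had one, where chance gives about 3.4. Hoxa3 in control mouse C6 was at 3.15 log2 CPM (8.81 CPM, 259 counts), while the other 5 control mice lay between 2.53 and 2.75. AZ6983 mice reached 8.05 CPM (A6), and the cause was not tested.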

How the results depend on the processing

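The counts of called members (0) and of tested members without overlap (0) were the same under all 23 and 16 alternatives run, and the median log2 fold change stayed between -0.06 and 0.06. Leaving out each mouse in turn gave 0 called and 0 without overlap throughout, and a median of -0.05 to 0.02. The mean paralogue group was then 5.49 to 5.55 in control and 5.55 to 5.60 in AZ6983 mice (difference 0.0182 to 0.0858), and the share of level on groups 9 to 13 was 10.6% to 11.004% and 10.3% to 11.1% (difference -0.505 to 0.309 percentage points). The choice of length moved these position measures in both groups. With exon length not shared with another gene the mean paralogue group was 4.98 in control and 5.05 in AZ6983 mice and the share 8.65% and 8.66%. With coding length, chosen after seeing the data, they were 5.80 and 5.82, and 13.2% and 12.9%. Without a length correction the control mean was 5.66, and the shares were 14.1% and 13.8%. The 2 sets of mice left out together, also chosen after seeing the data, were A4 with A5, and C3 and C6 with A1. No paired analysis was possible because the replicate numbers were given in accession order and the labels pair no mice. The 6 members under the filter had at most 11 counts in a mouse, which limits their precision.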
